A study of Mus musculus with 10 samples.

Results

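The nuclear-encoded genes of the mitochondrial respiratory chain were followed across sorted alveolar epithelial cells of Red2Kras and Confetti mouse lungs. Members were chosen by name, as every gene whose symbol starts with Nduf, Uqcr, Sdh, Cox4, Cox5, Cox6, Cox7, Cox8 or Atp5 and that held at least 100 UMIs (unique molecular identifiers, each standing for 1 captured RNA molecule) over all libraries. Of 97 matching entries among the 31053 genes of the files, 93 passed, while Cox7b2, Cox8b, Cox8c and a second entry named Atp5o held fewer UMIs. By the complex that they build or help to assemble, 44 members belonged to complex I, 8 to complex II, 8 to complex III, 17 to complex IV and 16 to complex V, and the 13 protein-coding mt- genes of the mitochondrial genome were measured beside them.

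Complexes I to IV pass electrons from NADH and succinate to oxygen and pump protons across the inner mitochondrial membrane, and complex V uses the proton gradient to make ATP. Most subunits are encoded in the nucleus and imported, whereas the mitochondrial genome encodes the membrane-embedded core of complexes I, III, IV and V, so that both genomes contribute to the same assemblies. Alveolar type II (AT2) cells, which make surfactant and act as stem cells of the alveolus, are known to be rich in mitochondria.

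The study asked how AT2 cells and their wildtype neighbours change when some of the cells of a lung acquire an oncogenic mutation. Droplet 3′ RNA sequencing was run on EpCAM+ cells sorted by fluorescent colour from the distal lungs of 8-week-old adult mice, and the methods state that both sexes were used and that at least 2 lungs were pooled for each sample. In all mice Sftpc-CreERT2, which drives Cre in AT2 cells, was induced with 3 tamoxifen doses of 0.2 mg per g body weight. In Sftpc-CreERT2; R26R-Confetti lungs both the RFP and the YFP cells are wildtype (1 library each, with a harvest time that the labels do not give and that the methods place at 2 weeks). In Sftpc-CreERT2; Red2Kras lungs the RFP cells carry the mutation and the YFP cells are their wildtype neighbours, sorted 4 days or 2 weeks after induction (2 libraries of each colour at each time), which gives 6 groups and 10 libraries. Comparisons with Confetti also compare 2 mouse lines.

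Of 42012 cell barcodes, 32698 passed the filters on genes, UMIs and mitochondrial share, and the 30599 of these without a UMI of the leukocyte gene Ptprc were summed per library, to between 8163707 and 71669755 UMIs. Any 2 libraries shared at most 11 cell barcodes. The median depth per cell was 15685 and 13199 UMIs in the 2-week RFP libraries and 3251 to 6577 in the other 8, and from a share of UMIs, fewer transcripts of a gene per cell and more RNA of other genes cannot be told apart. The 2 samples of a Red2Kras group are separate pools of lungs, and p values measure the spread between such samples. Markers of AT2 cells (Sftpc, Sftpb, Sftpa1, Lamp3, Abca3 and Slc34a2) made up 14.4% to 18.6% of UMIs in all Confetti and YFP libraries and in 4-day RFP replicate 1, and 8.54% to 10.3% in 4-day RFP replicate 2 and both 2-week RFP libraries. Of the 10 libraries 2 stood apart in leukocyte RNA, as Tyrobp was at 138 CPM (UMIs per 1e+06 UMIs of the library, scaled between libraries by TMM) in 4-day RFP replicate 2 and at 367 CPM in 2-week YFP replicate 2, against 2.00 to 32.7 CPM in the others, and Ptprc itself is at 0 by the choice of cells. AT2 cells express Lyz2 and Cd74 of the same marker list too.

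Promoters are shown first because they are sequence that the choice by name did not use. RefSeq windows on GRCm38.p6, from 250 bases before to 50 bases after the start of a gene, matched 78 of 93 members (83 windows), and 4 short motifs were searched on both strands in these and in the windows of all 27025 genes. The motif of NRF1, a regulator of nuclear genes for mitochondrial proteins (its letters are the capitals in the Ndufa11 line), was present in 7 members (8.97%) and in 1.07% of all genes. The ETS motif bound by GABPA (CCGGAAG) was in 21 members (26.9%) against 9.93% of all genes. A long form of the YY1 motif was in 5 members (6.41%) against 0.755%, and the oestrogen-related receptor motif TCAAGGTCA in 2 members (2.56%) against 0.466%. At least 1 of the 4 was found in 31 of the 78 members (39.7%) and in 11.7% of all genes, and a match is a description of letters, not a shown binding site. The following 100 bases before the start (5′ to 3′ on the gene's strand) belong to members that were higher in cycling cells and hold a motif, and to Cox7a1, the member with the lowest p value between RFP and YFP cells, whose window holds none of the 4. Capitals mark the motif, read on either strand.
Ndufa11, chr17:56717662-56717761, plus strand: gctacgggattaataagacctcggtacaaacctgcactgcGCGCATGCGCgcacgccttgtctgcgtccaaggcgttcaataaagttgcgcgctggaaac
Atp5g2, chr15:102671048-102671147, minus strand: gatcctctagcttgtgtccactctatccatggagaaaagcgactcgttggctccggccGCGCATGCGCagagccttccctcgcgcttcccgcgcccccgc
Atp5k, chr5:108434400-108434499, minus strand: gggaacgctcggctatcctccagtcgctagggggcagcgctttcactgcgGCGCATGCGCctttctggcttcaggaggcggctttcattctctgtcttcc
Sdhd, chr9:50603850-50603949, minus strand: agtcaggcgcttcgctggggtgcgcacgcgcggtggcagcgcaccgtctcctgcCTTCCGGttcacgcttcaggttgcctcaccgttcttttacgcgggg
Ndufb7, chr8:83566658-83566757, plus strand: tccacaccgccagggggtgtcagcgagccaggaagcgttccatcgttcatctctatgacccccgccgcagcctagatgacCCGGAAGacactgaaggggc
Atp5j, chr16:84834977-84835076, minus strand: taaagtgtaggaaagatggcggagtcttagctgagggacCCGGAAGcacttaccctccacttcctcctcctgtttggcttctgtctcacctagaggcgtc
Atp5g3, chr2:73911327-73911426, minus strand: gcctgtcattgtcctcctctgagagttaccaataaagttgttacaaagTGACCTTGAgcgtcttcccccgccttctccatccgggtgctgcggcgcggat
Cox7a1, chr7:30184071-30184170, plus strand: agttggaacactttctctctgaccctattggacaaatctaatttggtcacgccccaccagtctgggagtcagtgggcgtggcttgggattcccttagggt

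Transcripts of the 93 members made up between 2.60% and 4.28% of all UMIs in the 10 libraries, and those of the 13 mt- genes between 1.39% and 4.28%. Members took 2.89% and 2.88% in the RFP and YFP libraries of Confetti, 2.77% and 3.69% in the 4-day RFP replicates, 2.60% and 4.28% in the 4-day YFP replicates, 2.98% and 2.76% in the 2-week RFP replicates and 3.46% and 3.76% in the 2-week YFP replicates. At 4 days both colours were high in replicate 2 and low in replicate 1, whereas at 2 weeks both YFP libraries lay above both RFP libraries. The mt- genes took 4.28% and 3.74% in Confetti, 2.98% and 1.39% in 4-day RFP, 3.75% and 2.11% in 4-day YFP, 2.49% and 2.10% in 2-week RFP and 2.67% and 2.23% in 2-week YFP. The UMIs of members per UMI of mt- genes were therefore 0.674 and 0.772 in the Confetti libraries, and 1.20 to 1.68 in the 4 libraries of 2-week Red2Kras lungs. At 4 days this ratio was 0.930 and 0.692 in replicate 1 and 2.66 and 2.02 in replicate 2 of RFP and YFP, a wider gap between replicates than between colours.

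**Figure D1:**
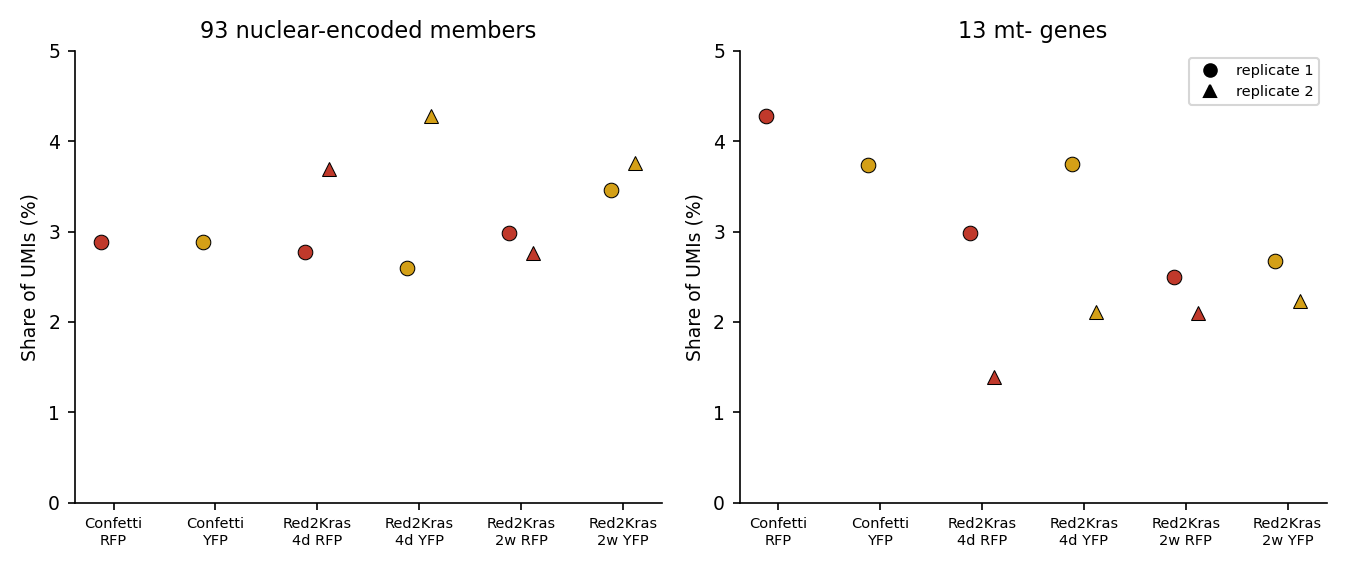
Percent of all UMIs (y axis) in the 93 members (left) and the 13 mt- genes (right), 1 point for each of the 10 libraries of Ptprc 0 cells in 6 groups, with circles for replicate 1 and triangles for replicate 2. The 2-week YFP libraries (3.46% and 3.76%) lie above the 2-week RFP libraries (2.98% and 2.76%) for the members, and the 4-day replicates lie apart from each other in both panels.

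At 2 weeks complexes I, III, IV and V each took a smaller share in both RFP than in both YFP libraries, and complex II did not. Complex IV, cytochrome c oxidase, took 0.889% and 0.761% of UMIs in 2-week RFP and 1.12% and 1.14% in 2-week YFP, and complex I, NADH dehydrogenase, took 0.889% and 0.855% against 1.05% and 1.18%. Complex III, cytochrome bc1, took 0.333% and 0.287% against 0.371% and 0.421%, and complex V, ATP synthase, 0.828% and 0.809% against 0.874% and 0.971%. Complex II, succinate dehydrogenase, was the smallest at 0.0382% to 0.0488% over all libraries, and its 2-week RFP values (0.0462% and 0.0488%) overlapped with those of 2-week YFP (0.0428% and 0.0477%). In Confetti these shares were 0.939% and 0.938% for complex I, 0.885% and 0.896% for complex IV and 0.723% and 0.717% for complex V, so that the 2-week RFP libraries lay below Confetti for complex I, across it for complex IV and above it for complex V. These sums are descriptions without a test. Leaving out cells with 2 or more UMIs over Cd52, Laptm5, Tyrobp, Fcer1g and Coro1a left the share of all members at 2.60% to 4.29%.

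Cox8a, a small subunit of complex IV, held the most UMIs of all members (392048) and lay at 1583 and 1427 CPM in Confetti RFP and YFP, 1519 and 1055 in 2-week RFP and 2161 and 2309 in 2-week YFP. Atp5e, the epsilon subunit of the F1 head, led complex V with 327357 UMIs, Uqcr11 complex III with 180460, Ndufa7 complex I with 163945 and Sdhb, the iron-sulphur subunit, complex II with 31244. Atp5e was at 1313 and 1321 CPM in Confetti, 1182 and 909 in 2-week RFP and 1723 and 1992 in 2-week YFP. The least abundant member was Ndufa4l2, a hypoxia-induced paralogue of the complex IV subunit Ndufa4, with 390 UMIs, of which 53 were left once cells with a UMI of Pecam1, Col1a1 or Foxj1 were removed. Ndufa4l2 read 10.1 CPM in 4-day YFP replicate 1, the library with the highest endothelial and mesenchymal marker sums (0.0397% and 0.0157% of UMIs), and 0 to 4.44 CPM in the other 9.

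Mutant RFP cells were compared with YFP cells of the same kind of lung. No member was called over both times together, at 4 days or at 2 weeks (edgeR's quasi-likelihood test, Benjamini-Hochberg adjusted p under 0.05, where 0.0% of all genes was called in each of the 3 comparisons). At an unadjusted p under 0.05, 0 members were higher and 7 lower over both times, against 8.52% of all genes higher and 7.21% lower. The numbers were 0 and 1 at 4 days (2.59% and 0.877% of all genes) and 1 and 10 at 2 weeks (7.2% and 5.5%). DESeq2 called 1 member over both times (Cox7a1), 0 at 4 days and 2 at 2 weeks (Cox7a1 and Cox6a2), where it called 5.06%, 0.263% and 2.0% of all genes. The difference between RFP and YFP was not called as different between the times for any member (edgeR's interaction test, 0 at an unadjusted p under 0.05, beside 0.856% of all genes higher and 0.944% lower, and 0 with DESeq2).

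The median fitted log2 fold change of the 93 members, RFP over YFP, was -0.28 over both times, -0.18 at 4 days and -0.29 at 2 weeks, beside -0.04, -0.03 and -0.01 for all genes tested. The medians depended on single YFP libraries. Without 4-day YFP replicate 2 the 4-day median was 0.33 and that over both times -0.08, with 37 members higher and 56 lower against 13 and 80. Without replicate 1 they were -0.56 and -0.44. The 4-day median was also -0.07 without 4-day RFP replicate 1 and -0.35 without replicate 2. The 2-week median was -0.12 without 2-week YFP replicate 2 and -0.48 without replicate 1. At 2 weeks the members' medians by complex were -0.32 for complex I, -0.10 for II, -0.28 for III, -0.63 for IV and -0.10 for V. Scaling by library totals instead of TMM moved the median of all genes at 2 weeks from -0.01 to 0.12. With that scaling 61 rather than 69 of the 93 members were fitted lower, with a median of -0.15, and the medians over both times and at 4 days were -0.12 and -0.08.

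Among the members lower in RFP than in YFP cells were alternative isoforms of complex IV, and 1 of them, Cox7a1, had the lowest p of all members over both times, at 4 days and at 2 weeks. These isoforms replace a ubiquitous subunit in certain tissues or conditions: Cox7a1 and Cox6a2 are known from heart and skeletal muscle, Cox4i2 from lung and low oxygen, and Cox6b2 from testis. Cox7a1 (chr7:30184144-30186078, plus strand, GENCODE M21 on GRCm38) was at 11.8 and 15.3 CPM in Confetti RFP and YFP, 8.44 and 8.32 in 4-day RFP, 9.56 and 24.4 in 4-day YFP, 4.81 and 4.05 in 2-week RFP and 20.04 and 22.5 in 2-week YFP. Each of the 4 RFP libraries of Red2Kras lungs lay below each of the 4 YFP libraries. Its log2 fold change was -1.67 ± 0.366 (SE) over both times (edgeR adjusted p = 0.187) and -2.26 ± 0.426 at 2 weeks (adjusted p = 0.314). With the replicate number as a block these were -1.62 (adjusted p = 0.0780) and -2.30 (adjusted p = 0.0615), fits that called 0 members but 0.684% and 0.143% of all genes (0.0214% at 4 days). Leaving out 1 Red2Kras library at a time gave -2.01 to -1.48 over both times.

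Cox6a2 (chr7:128205435-128206387, minus strand) was the abundant one of these isoforms. Its level was 509 and 484 CPM in Confetti RFP and YFP, 640 and 313 in 4-day RFP, 525 and 892 in 4-day YFP, 145 and 21.5 in 2-week RFP and 558 and 295 in 2-week YFP. Both 2-week RFP libraries lay below all other libraries. The log2 fold change at 2 weeks, RFP over YFP, was -2.36 ± 0.859 (edgeR adjusted p = 0.368; with the replicate block -2.90, adjusted p = 0.0766). Its size depended on the library: it was -4.31 without 2-week RFP replicate 1 and -1.56 without replicate 2. The AT2 markers were also fitted lower in 2-week RFP than in 2-week YFP (median log2 fold change -0.85, 0 of 6 called) and the AT1 markers higher (median 0.92, 0 called). The medians for markers of other cells were below 0 as well, at -3.31 for 7 immune, -1.31 for 6 ciliated, -1.01 for 6 endothelial, -0.88 for 6 mesenchymal and -0.55 for 5 airway secretory genes, with 0 called in each list. Cd52, the gene at the immune median, was at 3.27 and 13.3 CPM in 2-week RFP and 12.6 and 152 in 2-week YFP, so that its value rested on YFP replicate 2. The airway genes Bpifa1 (4.97) and Muc5b (1.81) were fitted higher. The part of these shifts in the Cox6a2 difference was not tested.

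The ubiquitous partner Cox6a1 differed less, with 264 and 190 CPM in 2-week RFP and 279 and 273 in 2-week YFP. Cox6a2 made up 69.6% and 69.3% of the UMIs of the pair in Confetti RFP and YFP, 76.0% and 52.6% in 4-day RFP, 72.8% and 74.2% in 4-day YFP, 35.4% and 10.2% in 2-week RFP and 66.7% and 52.0% in 2-week YFP. In the Ptprc-positive cells of the same libraries it was 1.51% to 27.9%. These cells may include AT2 cells or hold stray RNA of AT2 cells, as a Sftpc UMI was found in 15.8% to 100% of them after thinning. Which of these holds was not tested. After thinning each cell to 2000 UMIs, a UMI of Cox6a2 was found in 53.5% and 54.9% of Confetti RFP and YFP cells, 59.1% and 31.3% of 4-day RFP, 53.1% and 64.1% of 4-day YFP, 21.8% and 3.78% of 2-week RFP and 53.9% and 30.8% of 2-week YFP cells. The exact (Clopper-Pearson) 95% intervals of the lowest values were 20.6% to 23.1% and 3.11% to 4.56% for the 2-week RFP replicates, and cover counting error only. Ptprc-positive cells, with median depths of 3984 to 12711 UMIs, gave 0.860% to 12.1%, so that the value of 2-week RFP replicate 2 lay within that range. Without thinning the 2-week RFP shares were 49.6% and 10.7%. Up to 19 Ptprc 0 cells of a library were shallower than 2000 UMIs and were left out of the thinned values.

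Cox4i2 and Cox6b2 are isoforms of lower abundance. Cox4i2 (chr2:152754173-152765037, plus strand) was at 32.0 and 35.8 CPM in Confetti, 31.2 and 30.1 in 4-day RFP, 39.6 and 45.0 in 4-day YFP, 24.97 and 13.7 in 2-week RFP and 38.9 and 31.8 in 2-week YFP. Like Cox7a1, it was lower in each of the 4 RFP than in each of the 4 YFP libraries, with a log2 fold change of -0.69 ± 0.217 over both times (edgeR adjusted p = 0.217). That separation depended on scaling and on the cells kept: without TMM 4-day RFP replicate 2 (31.1 CPM) lay above 2-week YFP replicate 2 (27.8 CPM), and with cells that hold a UMI of Pecam1, Col1a1 or Foxj1 left out 4-day YFP replicate 1, at 19.6 CPM with the same TMM factors, lay within the 13.8 to 30.7 CPM of the RFP libraries (log2 fold change -0.58, adjusted p = 0.345). The partner Cox4i1 had 752 and 915 CPM in 2-week RFP and 729 and 763 in 2-week YFP. Part of the Cox4i2 signal lay in cells with markers of other types: its share of the Cox4 pair in 4-day YFP replicate 1 was 6.24%, and 3.19% with those cells left out. Cox6b2 was at 51.9 and 43.7 CPM in Confetti, 29.3 and 10.4 in 2-week RFP and 46.2 and 28.8 in 2-week YFP, so that the 2-week groups overlapped. Cox7a1 and Cox4i2 were the 2 members whose RFP libraries lay wholly below the YFP libraries over both times in TMM-scaled CPM (3.36% of all genes did so), and 0 members lay wholly above (3.12% of all genes). Cox7a1 lay wholly below also without TMM and without the marker-positive cells, and Cox4i2 in neither. Of the UMIs of Cox7a1 and its partner Cox7a2, Cox7a1 made up 0.596% to 2.11% in Ptprc 0 cells and 0.741% to 3.93% in Ptprc-positive cells.

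**Figure D2:**
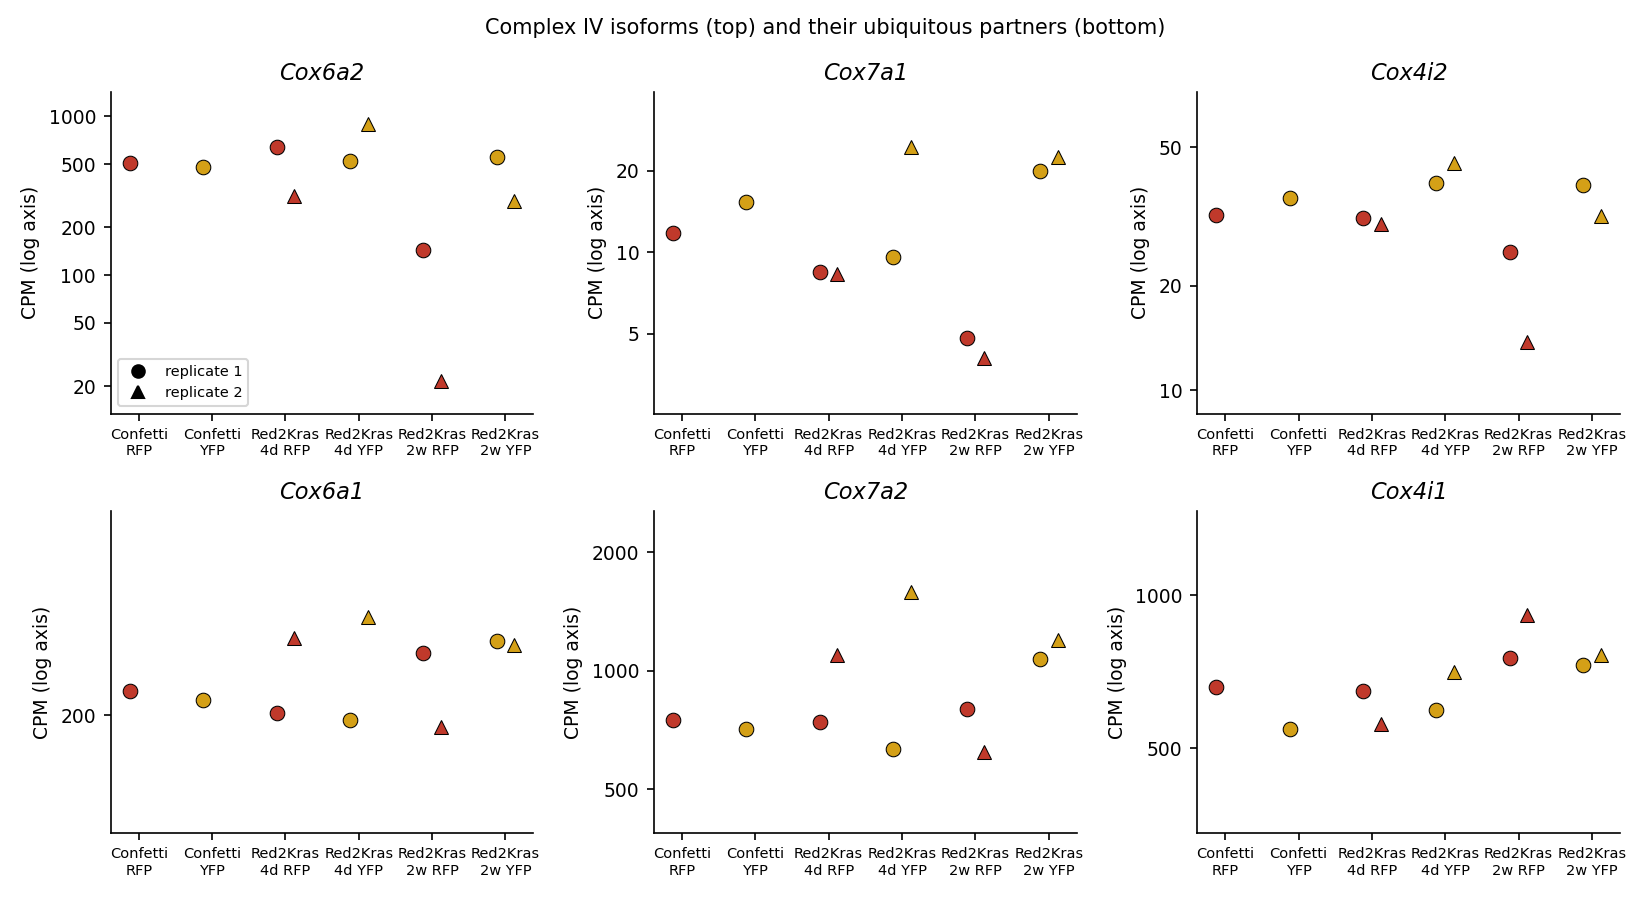
CPM on a log axis of Cox6a2, Cox7a1 and Cox4i2 (top) and of their ubiquitous partners Cox6a1, Cox7a2 and Cox4i1 (bottom), 1 point per library with circles for replicate 1 and triangles for replicate 2. The 2-week RFP libraries are lowest for Cox6a2 (145 and 21.5 CPM), Cox7a1 (4.81 and 4.05 CPM) and Cox4i2 (24.97 and 13.7 CPM), while Cox6a1 lies between 190 and 310.5 CPM.

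At 2 weeks the direction also differed between members. Of the 93 members, 47 were lower in both RFP than in both YFP libraries (22.6% of all genes were) and 10 were higher in both (27.1% of all genes). The 47 lower members comprised 25 of 44 in complex I, 2 of 8 in II, 3 of 8 in III, 12 of 17 in IV and 5 of 16 in V. The 10 higher members were the complex I core subunit Ndufs1, the accessory subunits Ndufa9 and Ndufa10, the assembly factors Ndufaf1, Ndufaf4 and Ndufaf6, the complex III core subunit Uqcrc2, the supercomplex factor Cox7a2l, and Atp5a1 and Atp5b, the alpha and beta subunits that form the catalytic head of ATP synthase. At 4 days 0 members lay higher without overlap (12.6% of all genes) and 6 lower (13.6% of all genes).

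Cox7a2l (chr17:83501918-83517330, minus strand) is known as a factor for supercomplexes of complexes III and IV, which were not measured here. Its RNA was at 178 and 117 CPM in Confetti, 197 and 377 in 2-week RFP and 126 and 163 in 2-week YFP (log2 fold change RFP over YFP 0.99 ± 0.356, edgeR adjusted p = 0.366, and 0.45 without 2-week RFP replicate 2). Uqcrc2 was at 81.0 and 125.8 CPM in 2-week RFP and 55.0 and 75.2 in 2-week YFP (0.67 ± 0.306, adjusted p = 0.413), and Atp5b at 388 and 474 against 268 and 298 (0.60 ± 0.278, adjusted p = 0.414). For all 3 the RFP libraries were the higher ones, without passing the test. For Uqcrc2 RFP replicate 1 (81.0 CPM) lay near YFP replicate 2 (75.2 CPM), so that its fold change rested more on RFP replicate 2 (125.8 CPM). In the other direction Ndufa3, an accessory subunit of complex I, was at 245 and 177 CPM in 2-week RFP and 461 and 538 in 2-week YFP (-1.24 ± 0.435, adjusted p = 0.362). Ndufb4, another accessory subunit, was at 206 and 179 against 319 and 374 CPM. The catalytic subunit Sdha had 54.0 and 51.4 against 57.4 and 61.2 CPM, the complex IV subunit Cox5a 537 and 555 against 462 and 708, and the core subunit Uqcrc1 of complex III 98.6 and 109.9 against 93.5 and 109.7. Cox5a and Uqcrc1 overlapped between the colours and Sdha did not.

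The direction at 2 weeks differed between members by role and by size of the encoded protein. At 2 weeks the 3 core subunits of complex III were all fitted higher in RFP (median log2 fold change 0.29) and its 5 small subunits all lower (-0.56). In complex I, 25 of 29 accessory subunits were fitted lower (-0.40), as were 4 of 7 core subunits (-0.22). The 5 tissue isoforms of complex IV were all fitted lower (-0.92, from -2.36 to -0.14), but Cox6b2 and Ndufa4l2 overlapped between the colours. Of the 40 members whose longest coding sequence holds at most 130 codons, 39 were fitted lower in RFP (median -0.66, quartiles -0.86 and -0.43), and of the 53 longer members 30 were (median -0.05), a count that was 22 (median 0.08) without TMM and 20 (median 0.08) without 2-week YFP replicate 2. At 4 days the classes were closer, with 38 of 40 (median -0.21) and 44 of 53 (median -0.17) fitted lower in RFP, but without 4-day YFP replicate 2 only 5 (median 0.39) and 7 (median 0.27) were, and without 4-day RFP replicate 1 the numbers were 24 (-0.033) and 34 (-0.16). Among all genes tested the 2-week medians were -0.16 for 743 genes of at most 130 codons and 0.02 for 13035 longer ones. Among genes with symbols starting with Rpl or Rps they were 0.02 for 28 short and 0.69 for 65 longer genes. This choice by name is not limited to proteins of the ribosome. With the limit at 100 codons the members' medians were -0.73 and -0.19, and at 200 codons -0.42 and 0.12. The limits were chosen after the values were seen and no test was made. The 2-week RFP cells were also the deepest (median 15685 and 13199 UMIs against 5833.5 and 6577 in 2-week YFP), and the part of depth in this pattern was not tested.

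**Figure D3:**
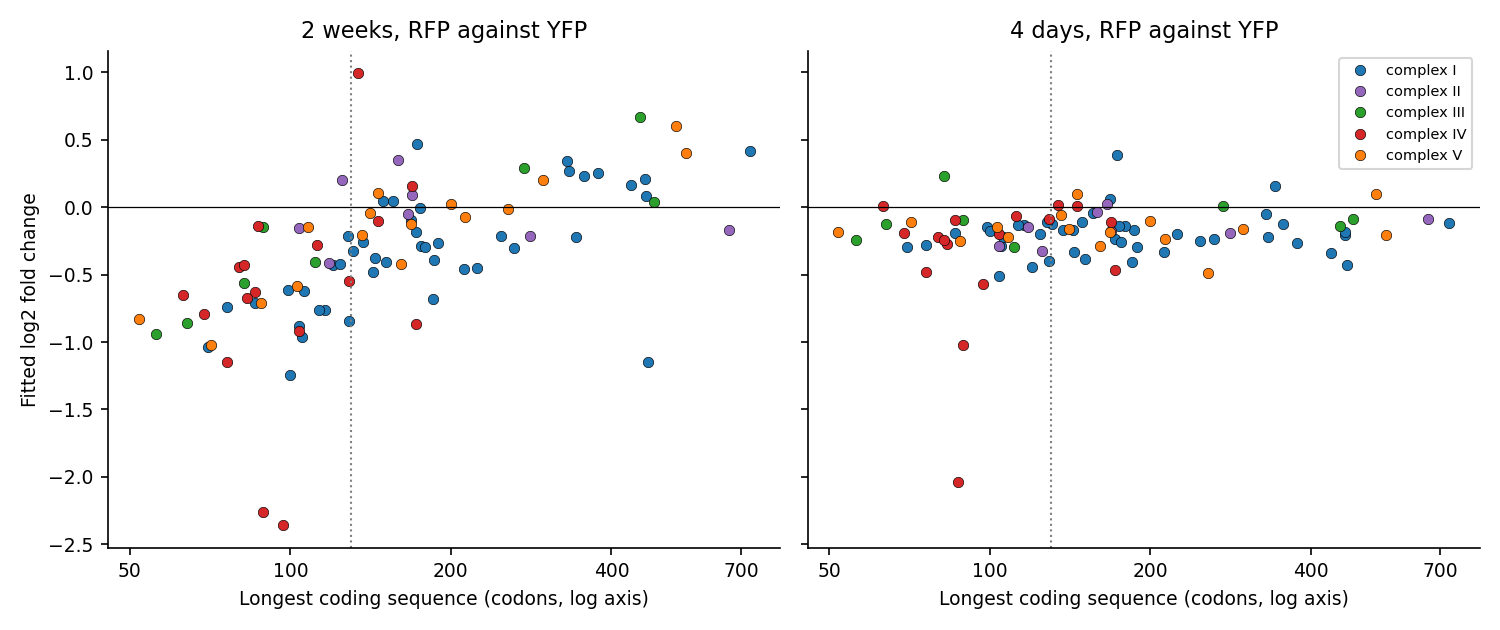
Fitted log2 fold change of each member, RFP over YFP (y axis), against the number of codons of its longest coding sequence (x axis, log scale; dotted line at 130), coloured by complex, at 2 weeks (left) and 4 days (right). At 2 weeks members of at most 130 codons lie mostly below 0 (39 of 40), and longer members lie on both sides (23 above and 30 below).

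Each Red2Kras group was set against the mean of the Confetti libraries, which all 4 comparisons share and which the methods count as 1 Confetti replicate. Each Confetti library was a group of its own in the fit. The p values therefore rest on the spread within the 4 pairs of Red2Kras libraries and hold no spread between Confetti samples. edgeR called 0 members in each, with 0.0202% of all genes called for 2-week RFP, 0.00674% for 2-week YFP and 0.0% for both 4-day groups. At an unadjusted p under 0.05, 11 members were higher and 3 lower in 2-week RFP (14.9% and 9.85% of all genes), 1 higher and 0 lower in 2-week YFP (3.35% and 0.85%), and 0 in either direction in 4-day RFP (4.54% and 1.34%) and 4-day YFP (0.931% and 0.324%). Without Confetti YFP the 2-week RFP numbers were 2 and 2 (1134 and 881 of 14893 genes). DESeq2 called 5 members in 2-week RFP against Confetti (12.1% of all genes) and 0 in 4-day RFP (0.83%), 2-week YFP (0.324%) and 4-day YFP (0.0607%). The 5 were Uqcrc2, Atp5b and the Rieske protein Uqcrfs1, which were higher, and Cox7a1 and Cox6a2, which were lower.

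For 2-week RFP over Confetti the log2 fold change was 1.22 ± 0.309 for Uqcrc2 (edgeR adjusted p = 0.0966), 1.02 ± 0.28 for Atp5b (0.106) and 0.94 ± 0.304 for Sdhd, a membrane anchor of complex II (0.128). It was -1.60 ± 0.418 for Cox7a1 (adjusted p = 0.100), -2.58 ± 0.866 for Cox6a2 (0.136) and -0.80 ± 0.311 for Cox4i2 (0.171). The value of Cox6a2 was -1.77 without 2-week RFP replicate 2 and -4.53 without replicate 1. Uqcrc2 lay at 52.2 and 37.7 CPM in Confetti and Uqcrfs1 at 95.1 and 71.5, against 142 and 197 for Uqcrfs1 in 2-week RFP. For 2-week YFP over Confetti the lowest p belonged to Atp5f1, the b subunit of the ATP synthase stalk, at 315 and 242 CPM in Confetti and 538 and 689 in 2-week YFP (log2 fold change 1.15, adjusted p = 0.788).

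The median log2 fold change of the 93 members over Confetti was 0.23 in 2-week RFP, 0.19 in 4-day RFP, 0.50 in 2-week YFP and 0.40 in 4-day YFP, beside 0.02, 0.00, 0.00 and 0.04 for all genes. The 4-day YFP value was -0.11 without 4-day YFP replicate 2 and 0.80 without replicate 1, and the 4-day RFP value 0.060 without 4-day RFP replicate 2 and 0.33 without replicate 1. With Confetti YFP alone as the Confetti level the 4 medians were 0.34, 0.25, 0.58 and 0.48, and with Confetti RFP alone 0.11, 0.11, 0.41 and 0.32. Without TMM the 4 values were 0.14, 0.096, 0.28 and 0.22. Both 2-week YFP libraries lay above both Confetti libraries for 79 of 93 members (24.5% of all genes) and below for 1 (26.8%), and for 2-week RFP the numbers were 47 (36.4%) and 22 (35.9%). In Confetti, 2-week YFP and 2-week RFP, stress and dissociation genes took 0.245% to 0.277%, 0.288% to 1.17% and 0.407% to 0.901% of UMIs. Immune markers took 4.51% to 5.61%, 3.23% to 3.87% and 1.07% to 2.21% in the same order. These sums were mostly Lyz2 and Cd74, which AT2 cells express too (in Confetti RFP Lyz2 was at 48165 CPM and Cd74 at 6285). Tyrobp of the same list was at 8.12 and 9.83 CPM in Confetti, 11.9 and 367 in 2-week YFP and 2.00 and 21.1 in 2-week RFP. Endothelial markers took 0.0147% to 0.0202%, 0.00489% to 0.00693% and 0.00201% to 0.00411%. The part of these shifts in the differences from Confetti was not tested. In 2-week YFP the medians of members of at most 130 codons and of longer members were alike, at 0.53 and 0.48, whereas in 2-week RFP they were -0.12 and 0.43. In 2-week RFP the median of the shorter members was -0.0082 (20 higher and 20 lower) without replicate 2 and -0.26 without replicate 1, and -0.20 without TMM.

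The medians of the mt- genes were of the other sign from those of the members in these comparisons. Against Confetti their median log2 fold change was -0.93 in 2-week RFP, -0.78 in 4-day RFP, -0.55 in 2-week YFP and -0.28 in 4-day YFP. In the same order edgeR called 0 mt- genes in each, and 4, 3, 1 and 1 had an unadjusted p under 0.05. At that p 14.9% of all genes were higher and 9.85% lower in 2-week RFP, and 4.54% and 1.34% in 4-day RFP. For 2-week YFP these shares were 3.35% and 0.85%, and for 4-day YFP 0.931% and 0.324%. The 4-day YFP median rested on replicate 2, being 0.039 (7 higher and 6 lower) without it and -0.60 without replicate 1, and the 4-day RFP median was -1.55 without replicate 1 and -0.37 without replicate 2. With Confetti YFP alone as the Confetti level the 4-day YFP median was -0.066, and with Confetti RFP alone -0.40. DESeq2 called 4 in 2-week RFP (mt-Atp8, mt-Nd3, mt-Nd4l and mt-Nd6, all lower) and 0 in the other 3. Of all genes it called 12.1% in 2-week RFP, 0.83% in 4-day RFP, 0.324% in 2-week YFP and 0.0607% in 4-day YFP. mt-Nd4l, a core subunit of complex I, was at 664 and 477 CPM in 2-week RFP and 1132 and 1337 in 2-week YFP, and mt-Co1, the catalytic subunit of complex IV, at 5380.0 and 4100.2 against 8180 and 6441 CPM. mt-Co2, which accepts electrons from cytochrome c, overlapped at 3181 and 3577 against 2260 and 3771 CPM. At 2 weeks 7 of the 13 mt- genes were lower in both RFP than in both YFP libraries (22.6% of all genes) and 2, mt-Nd2 and mt-Atp6, were higher (27.1%). In Confetti YFP mt-Atp8 read 653 CPM and mt-Nd6 122 CPM, against 77.6 to 182 and 14.1 to 69.7 CPM elsewhere. The genes mt-Atp8, mt-Atp6 and mt-Co3 overlap on 1 strand, as do mt-Nd4l and mt-Nd4, so that their reads may be shared. The cell filter on mitochondrial share uses these genes, and refits without it called 0 members as before.

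Cells that were dividing were compared with the other cells of the same library. A cell counted as cycling with 2 or more UMIs over 10 cell-cycle genes, none of them a member, and made up 2.52% to 30.4% of a library, highest in 2-week RFP (30.4% and 14.5%). These calls were made without thinning, and the 2-week RFP cells were also the deepest (median 15685 and 13199 UMIs). In 4-day RFP replicate 2, at a median of 5144 UMIs, the share was 12.7%. In the 9 libraries with at least 50 cycling cells (4-day YFP replicate 1 had 46), 28 members were higher and 4 lower in cycling cells of 92 tested (edgeR's quasi-likelihood test with library as block, adjusted p under 0.05, by which 19.6% of all genes were higher and 20.5% lower, 40.2% in all). The median log2 fold change was 0.09 for members and -0.04 for all genes. In ATP synthase 8 of 16 members were higher and 0 lower, beside 14 higher and 2 lower of 44 in complex I, 1 of 8 higher in complex II (Sdhd) and in complex III (Uqcr10), and 4 higher and 2 lower of 16 in complex IV.

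The split between higher and lower calls depended on the fit. It was 51 and 3 without TMM (24.1% of all genes higher and 13.5% lower), which moved the median of all genes from -0.04 to 0.05. It was 29 and 9 with DESeq2 (18.8% and 22.1%, 40.9% in all), and 13 and 13 without the filter on low counts (8.51% and 15.8%). Leaving out 4-day RFP replicate 2 gave 20 and 12 (17.7% and 21.5%), and leaving out 2-week RFP replicate 2 gave 24 and 7 (19.0% and 18.7%). Under all 14 alternatives 12 members stayed called higher (Ndufa5, Ndufab1, Ndufb7, Ndufaf2, Ndufaf3, Sdhd, Cox5b, Cox7a2, Cox6b2, Atp5g2, Atp5k and Atp5o) and 3 lower (Ndufa6, Ndufa7 and Cox6a2). The share of all genes that stayed called under all 14 was not counted, so these numbers describe single members only.

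Atp5g2 encodes the c subunit of the rotor of ATP synthase and was higher in cycling cells of 9 of 9 libraries. It rose from 727 ± 168 CPM (SD, n = 9 libraries) in other cells to 1082 ± 252 in cycling cells (log2 fold change 0.57 ± 0.0597 SE, edgeR adjusted p = 2.13e-06). Within single libraries the log2 ratio was between 0.37 and 0.80. Of the other genes for the same protein, Atp5g3 was also called (0.28, adjusted p = 0.00360, but 0.0834 without the filter on low counts) and Atp5g1 was not (0.12, adjusted p = 0.341).

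In complex I the accessory subunit Ndufa5 rose from 250 ± 88.8 to 389 ± 143 CPM (0.64, adjusted p = 2.27e-06, 9 of 9 libraries) and the assembly factor Ndufaf2 from 31.4 ± 4.34 to 51.5 ± 12.9 CPM (0.73, adjusted p = 4.21e-05, 8 of 9). Ndufab1, the mitochondrial acyl carrier protein, rose by a log2 fold change of 0.39 (9 of 9). Of the accessory subunits 2 fell in 9 of 9 libraries, Ndufa7 from 816 ± 190 to 596 ± 154 CPM (-0.45, adjusted p = 0.00143) and Ndufa6 from 296 ± 36.6 to 218 ± 23.6 CPM (-0.43, adjusted p = 0.000271). Complex I thus held called members of both directions. Of the 7 core subunits Ndufv2 (0.27, adjusted p = 0.0140), Ndufv1 (0.21, adjusted p = 0.0358) and Ndufs8 (0.22, adjusted p = 0.0397) rose, and Ndufs1 (0.11, adjusted p = 0.377) did not pass the test. All 3 core calls were lost without the filter on low counts (adjusted p = 0.173, 0.406 and 0.349 in the same order) and when 4-day RFP replicate 2 (0.0537, 0.116 and 0.152) was left out, and likewise without 2-week RFP replicate 1.

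Sdhd rose from 67.2 ± 17.01 to 95.04 ± 24.8 CPM (0.52, adjusted p = 7.11e-05, 9 of 9 libraries), whereas the catalytic subunit Sdha was at -0.24 (adjusted p = 0.0516) and Sdhb at 0.17 (adjusted p = 0.128). In complex IV the subunit Cox7a2 rose from 936 ± 316 to 1312 ± 415 CPM (0.50, adjusted p = 2.18e-05, 9 of 9) and Cox5b from 577 ± 203 to 743 ± 250 (0.37, adjusted p = 0.000146, 9 of 9). Its supercomplex paralogue Cox7a2l was lower in 9 of 9 libraries (-0.22, adjusted p = 0.00641), a call that was lost without TMM (adjusted p = 0.204).

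The 2 isoforms with the widest change in cycling cells went in opposite directions. Cox6a2 fell from 477 ± 291 CPM in other cells to 173 ± 141 in cycling cells (log2 fold change -1.55 ± 0.177, adjusted p = 5.97e-06, lower in 9 of 9 libraries), with library log2 ratios between -2.68 and -0.75. In Confetti RFP and YFP it was at 106 and 123 CPM in cycling and 548 and 525.9 in other cells, so that the difference was present in wildtype lungs as well. Cox6b2 rose from 32.3 ± 10.99 to 90.9 ± 74.4 CPM (1.14 ± 0.228, adjusted p = 0.00107, 9 of 9), from 44.0 to 238 CPM in Confetti RFP but from 29.4 to 29.9 and from 10.3 to 10.9 CPM in the 2-week RFP replicates. The partners Cox6a1 (0.09, adjusted p = 0.304) and Cox6b1 (0.08, adjusted p = 0.343) did not pass the test. All 6 AT2 markers tested were lower in cycling cells as well (median log2 fold change -0.63, Sftpc -0.64). Of the markers of other cells, 3 of 3 airway secretory (median -2.86), 5 of 6 endothelial (-1.64), 1 of 1 mesenchymal, 2 of 5 ciliated, 2 of 7 immune and 2 of 6 AT1 genes were lower and 1 AT1 gene was higher, and 6 of 10 stress and dissociation genes were lower. The part of these shifts in the members' changes was not tested. Cox6a2 stayed at -1.53 when cells with immune-gene UMIs were left out and at -1.61 when cycling cells were called after thinning to 2000 UMIs. Cycling cells were deeper than other cells in each of the 9 libraries (median 21281.5 against 13853 UMIs in 2-week RFP replicate 1, for example).

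**Figure D4:**
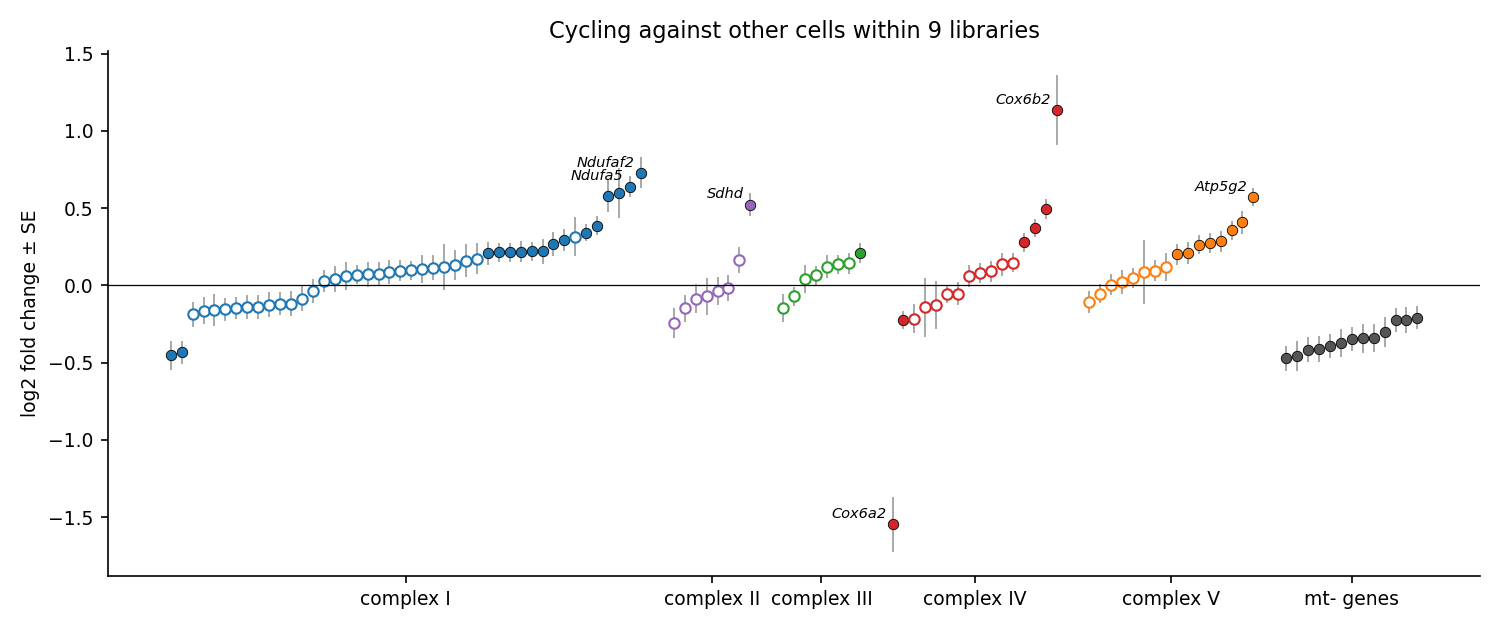
Log2 fold change between cycling and other cells within 9 libraries (edgeR, library as block), with standard errors, for members of each complex and for mt- genes. Filled points passed the test (28 members higher and 4 lower), Cox6a2 (-1.55) and Cox6b2 (1.14) lie farthest out among called members, and all 13 mt- genes lie below 0.

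All 13 mt- genes were called lower in cycling cells, with a median log2 fold change of -0.35, from -0.47 for mt-Nd5 to -0.21 for mt-Nd1. mt-Co1 fell from 7495 ± 2792 CPM in other cells to 5400 ± 1317 in cycling cells (edgeR adjusted p = 0.00104, lower in 9 of 9 libraries). In 4-day RFP replicate 2 the log2 ratio was positive for mt-Nd3 (0.251), mt-Nd1 (0.174), mt-Atp6 (0.162) and mt-Co2 (0.118). There it was also positive, at most 0.022, for mt-Nd2, mt-Cytb, mt-Nd4l and mt-Atp8, and negative for the rest. In 2-week RFP replicate 2 it was positive for mt-Atp8 (0.0695), mt-Atp6 (0.0535) and mt-Nd1 (0.0153). Without TMM 8 of the 13 were called, and 10 to 13 without 1 library.

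Other genes of the pathway were counted from 4 lists, to be read beside the 19.6% of all genes higher and 20.5% lower in cycling cells. Of 16 genes for electron carriers and substrate entry, 6 were higher in cycling cells (Cycs, which encodes cytochrome c, at 0.66, Gpd2 at 0.53, and Coq2, Coq6, Coq7 and Etfa) and 3 lower (the coenzyme Q genes Coq8a at -0.86, Coq8b at -0.73 and Coq9). Of 26 assembly genes of complexes III to V, 6 were higher (among them Atpif1, the inhibitor of ATP synthase, at 0.42) and 2 lower (Sco2 and Uqcc3). Of 14 regulators tested, Tfam, which packages and transcribes mitochondrial DNA, was higher at 0.59, as were Gabpb1 (0.52) and Nrf1 (0.40), and Ppargc1a (-0.74) and Esrra (-0.78), known as coactivator and receptor of mitochondrial gene programmes, were lower. Of 18 citric acid cycle genes, 5 were higher (Cs, Idh3a, Idh3g, Mdh2 and Sucla2) and 0 lower. In RFP against YFP edgeR called 0 genes of these lists over both times, at 4 days or at 2 weeks, with 8, 1 and 10 at an unadjusted p under 0.05 (of all genes 8.52% were higher and 7.21% lower over both times, 2.59% and 0.877% at 4 days and 7.2% and 5.5% at 2 weeks), while DESeq2 called Myc in all 3 comparisons and Sco2 over both times, both higher in RFP.

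Among the 27 promoter-matched members called higher in cycling cells, 11 held at least 1 of the 4 motifs (40.7%), beside 20 of the 51 other matched members (39.2%). By motif, NRF1 was in 4 of 27 and 3 of 51, ETS in 5 of 27 and 16 of 51, YY1 in 2 of 27 and 3 of 51 and the receptor motif in 2 of 27 (Sdhd and Atp5g3) and 0 of 51.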

How the data were processed

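RNA was measured by droplet 3′ sequencing in 10 libraries. The deposited values are raw counts of UMIs per gene and cell, made by the authors with Cell Ranger on GRCm38 (version 3.1.0 in the submitters' processing notes and 5.0.1 in the file headers). The kit's version in the labels is not the one in the methods. UMIs of this kit count transcript ends, so levels were not divided by gene length.

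Cells with at least 1000 genes, at most 50000 UMIs and at most 15% mitochondrial UMIs were kept, and counts of cells without Ptprc UMIs were summed per library. No doublet caller was run. No per-sample column was left unused (0). Groups were compared by edgeR's quasi-likelihood test (edgeR 4.0.16, R 4.3.3, TMM, filterByExpr) over 6 groups, or over the 8 Red2Kras libraries with time as a term for both times together, with Benjamini-Hochberg adjustment over all genes. Cycling cells held 2 or more UMIs over Mki67, Top2a, Cdk1, Ccnb1, Ccnb2, Birc5, Tpx2, Cenpf, Ube2c and Nusap1 and were compared with the other cells with library as block. Shares were computed in Python 3.11.15 with scipy 1.17.1. The fits were tested on simulated counts.

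Replicate numbers in the labels were taken to pair RFP and YFP libraries of a time. The deviations of libraries with the same number correlated (r = 0.4537 at 4 days and 0.5682 at 2 weeks over 14828 genes). With 2 libraries a group both numbers of a time must give the same r, and what a shared number stands for was not tested. The comparison of cycling cells counted each of its 9 libraries as a unit and did not model this pairing. No libraries were duplicates, as replicate counts differed beyond sampling noise.

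Alternatives were DESeq2 1.42.0, library totals, mt- genes left out before scaling, no filter on low counts, on Ptprc or on mitochondrial share, cells with Pecam1, Col1a1 or Foxj1 UMIs left out, cycling called after thinning, each Red2Kras library left out (for cycling cells each of the 9 libraries) and a replicate block. Leaving out a Confetti library in the group comparisons, leaving out cells with 2 or more immune-gene UMIs and the codon limits of 100 and 200 were chosen after seeing the data. The members and gene lists were chosen with earlier results of these data known. Genes were named by rule: up to 5 called members per direction of a comparison, or the 3 with the lowest p where none was called, core subunits, isoforms, the most and least abundant members, and mt- genes. A core subunit that the rule names is not reported here.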

Additional observations from a re-analysis of the deposited data

Results flagged for a closer look

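Single libraries stood far from the rest of their group, by Dixon's test, in 7 of 165 groups of values tested, where chance gives about 1 in 20 (8.2). Among the 4 YFP libraries of Red2Kras lungs, Ndufa4l2 (10.1 CPM) and mt-Nd5 (627 CPM) were highest in 4-day YFP replicate 1. Among the 4 RFP libraries, mt-Atp8 was highest in 4-day RFP replicate 1 (182 CPM) and the share of UMIs in complex I in 4-day RFP replicate 2 (1.08%). Among the 9 log2 ratios of cycling to other cells, those of Ndufa11 (-0.126) and Ndufaf2 (-0.237) in 2-week YFP replicate 2 were lowest, where cycling cells numbered 50, and that of Atp5j in 4-day RFP replicate 2 was highest (0.604). For 106 genes, the members and the mt- genes, the difference of RFP and YFP was tested between the times, and 0 were called by edgeR or DESeq2, with 0 at an unadjusted p under 0.05.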

How the results depend on the processing

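Counts of called members were 0 in all 8 group comparisons and stayed at 0 without any 1 of the Red2Kras libraries (0 to 0) and, in the comparisons that use them, without either Confetti library, as with the pairing of replicates: with the replicate block 0 members were called, as without it, beside 96 of all genes over both times, 3 at 4 days and 20 at 2 weeks. DESeq2 called 1 member over both times, 2 at 2 weeks and 5 for 2-week RFP against Confetti, and without the filter on low counts edgeR called 1, 2 and 3, beside 531 of 21303, 318 of 21612 and 1886 of 21612 genes. In cycling cells 54 members were called without TMM against 32 (37.6% of all genes against 40.2%), and 27 to 36 without 1 library (33.5% to 39.9%).

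The share of UMIs in members was 2.87% in Confetti RFP as a mean over cells and 2.90% in Confetti YFP without marker cells. That of mt- genes in Confetti RFP was 4.38% as a mean over cells, 4.24% without the Ptprc filter and 4.30% without marker cells. In Confetti YFP it was 3.82%, 3.71% and 3.79%, and 3.75% without immune cells, and in 2-week RFP 2.60% as a mean over cells.

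Among the members named by rule, directions reversed in 4-day comparisons for members that were not called. Between RFP and YFP, leaving out 1 of the 4-day libraries gave -0.073 to 0.77 for Ndufaf4, -0.11 to 0.45 for Ndufaf5 and -0.59 to 1.12 for Uqcrq. The values below 0 came without 4-day RFP replicate 2 and, for Ndufaf5 (-0.066) and Uqcrq (-0.30), without 4-day YFP replicate 1. For 4-day YFP against Confetti the ranges were -0.00030 to 1.31 for Cox5b, -0.20 to 0.025 for Ndufa6 and -0.32 to 0.19 for Ndufaf5, each end without 1 of the 4-day YFP replicates. Without 1 Confetti library Ndufa6 was -0.16 to 0.032 for 2-week YFP and -0.17 to 0.025 for 4-day YFP and Ndufaf5 -0.25 to 0.18 for 4-day YFP. Ndufaf5 was 0.0073 without the Ptprc filter and 0.0046 without marker cells. The causes were not tested. With 2 libraries a group, the values of the least abundant member, Ndufa4l2, rest on 390 UMIs. Of these 53 were left without cells with a UMI of Pecam1, Col1a1 or Foxj1. The part of depth in its values was not tested.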
